A study of Homo sapiens with 14 samples.

Results

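SULT1C2, OLFML2A, PPP1R16B, CCNJL and BCL6 are 5 genes whose mRNA was far lower after knockdown of RBPMS than in control cells, by a fold that depended on which libraries were compared. They were chosen from the 16405 genes of the knockdown experiment for large falls, in part because 1 control library, shCtrl replicate 1, held a high level of each. The knockdown contrast and its difference between sets of libraries are therefore given for these genes as a description, without a test. Each gene had 1 line in the table of the knockdown experiment and 1 line in that of a compound treatment (12325 genes), and all 5 passed the filter on low counts in both.

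All libraries came from Kasumi-1, a myeloblast cell line from peripheral blood of a leukemia with the t(8;21) translocation, which joins RUNX1 to RUNX1T1. In the knockdown experiment, lentivirus carried either a scramble hairpin as control (shCtrl, n = 3) or a hairpin that targets the RNA-binding protein RBPMS (shRBPMS, n = 3). Cells were harvested after 48 h of infection and 48 h of puromycin selection, so both groups carry a virus and were selected. The labels name neither the hairpin sequences nor their number. In the treatment experiment, no virus is named, and cells were given DMSO as vehicle (n = 2) or RB98# (n = 2). RB98# is known here by its code name, and the labels give neither dose nor duration. Column labels in the knockdown table put replicate 1 of both groups in a set of its own (set 1) and replicates 2 and 3 in another (set 2), and the labels do not explain the sets. Those column labels give replicates 2 and 3 of each group a shared number with sub-numbers. The labels do not say that replicates were separate cultures, so p-values may measure technical spread, also in fits of set 2 alone.

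The genes belong to different pathways. SULT1C2 encodes a cytosolic sulfotransferase, which moves a sulfonate group from the donor PAPS onto small phenolic molecules. OLFML2A encodes a secreted protein with an olfactomedin domain that is found in extracellular matrix. PPP1R16B, also called TIMAP, encodes a regulatory subunit that brings the catalytic subunit of protein phosphatase 1 to membranes and is best known from endothelial cells. CCNJL encodes cyclin J-like, a poorly studied relative of the cyclins. BCL6 encodes a zinc-finger repressor that recruits corepressors such as BCOR, drives germinal centre B cells and is known to bind and repress its own gene.

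In GENCODE 29 on GRCh38 all 5 are protein-coding. SULT1C2 (ENSG00000198203) lies on the plus strand at chr2:108288639-108309915, OLFML2A (ENSG00000185585) on the plus strand at chr9:124777158-124814885 and PPP1R16B (ENSG00000101445) on the plus strand at chr20:38805705-38923024. CCNJL (ENSG00000135083) lies on the minus strand at chr5:160249106-160345396 and BCL6 (ENSG00000113916) on the minus strand at chr3:187721377-187745727. Annotated genes overlap 3 of the loci, with 2 antisense genes at BCL6, 2 processed pseudogenes on the opposite strand at CCNJL and an RN7SL pseudogene at PPP1R16B. None of these overlapping genes has a line in either table, and whether counting used strand is not given in the sources used here.

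The sequence before the start of transcription is shown so that the genes can be compared at their promoters. That their levels moved together over the knockdown libraries was fixed by how they were chosen and says nothing of a shared promoter feature. RefSeq windows on GRCh38.p14 run from 250 bases before to 50 bases after an annotated start. They were found for 4 of the 5 genes, and PPP1R16B has no entry. The 250 bases before the first window's start follow, 5′ to 3′ on the gene's strand, with CG pairs in capitals.
SULT1C2 (chr2:108288645-108288894, plus strand): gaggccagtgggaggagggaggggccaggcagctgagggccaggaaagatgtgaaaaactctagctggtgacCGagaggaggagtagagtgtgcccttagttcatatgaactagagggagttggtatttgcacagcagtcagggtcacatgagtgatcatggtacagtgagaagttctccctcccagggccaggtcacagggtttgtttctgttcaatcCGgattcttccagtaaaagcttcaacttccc
OLFML2A (chr9:124776883-124777132, plus strand): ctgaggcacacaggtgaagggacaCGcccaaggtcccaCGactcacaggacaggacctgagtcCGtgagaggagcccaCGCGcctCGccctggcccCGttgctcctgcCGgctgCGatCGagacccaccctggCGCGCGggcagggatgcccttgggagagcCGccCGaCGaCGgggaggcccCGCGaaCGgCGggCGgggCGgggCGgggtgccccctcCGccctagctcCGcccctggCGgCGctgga
CCNJL (chr5:160312565-160312814, minus strand): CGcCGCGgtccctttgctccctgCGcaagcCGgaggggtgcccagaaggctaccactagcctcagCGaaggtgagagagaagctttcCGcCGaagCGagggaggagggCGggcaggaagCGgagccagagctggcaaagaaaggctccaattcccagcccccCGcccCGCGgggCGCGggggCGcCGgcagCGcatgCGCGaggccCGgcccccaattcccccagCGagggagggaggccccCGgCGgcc
BCL6 (chr3:187745469-187745718, minus strand): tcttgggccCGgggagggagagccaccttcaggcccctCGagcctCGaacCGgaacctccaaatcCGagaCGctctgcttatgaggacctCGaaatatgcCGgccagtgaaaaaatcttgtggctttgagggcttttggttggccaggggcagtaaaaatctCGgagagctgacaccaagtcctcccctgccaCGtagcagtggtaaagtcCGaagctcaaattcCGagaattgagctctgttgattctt

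The promoters were unlike in base composition. The SULT1C2 window held 3 CG pairs, and 81.8% of the 35116 RefSeq windows held as many or more. The first windows of OLFML2A and CCNJL held 34 and 36 CG pairs, reached by 15.6% and 12.7% of windows, and the first BCL6 window held 12, against a median of 14 over all windows. OLFML2A, CCNJL and BCL6 each have a second annotated window, with 7, 4 and 7 CG pairs.

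Motifs were searched on both strands. The forkhead motif TGTTTAC, held by 3.42% of all windows, and the PU.1 motif GAGGAAGT, held by 2.59%, had no match in the 7 member windows. The RUNX motif TGTGGT, held by 13.07% of all windows, matched once in the second window of CCNJL and once in that of BCL6. The BCL6 motif TTCCNAGAA, held by 1.87% of all windows, had its matches in the first BCL6 window and in no other. Those matches are printed with the motif in capitals, the first as written and the second as its reverse complement. They are matches of letters, not measured binding.
BCL6, first match (chr3:187745477-187745506, minus strand): gaagctcaaaTTCCGAGAAttgagctctgt
BCL6, second match (chr3:187745419-187745442, minus strand): tgcaagaagtTTCTAGGAAaggcc

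The 6 knockdown libraries held 24.03 to 34.38 M counts (1 M is 1e6), and the 4 of the treatment experiment held 13.85 to 15.35 M. Mitochondrially encoded genes took 15.2% and 13.2% of counts in shCtrl and shRBPMS replicate 1, against 6.20% to 6.95% in the 4 libraries of set 2. RBPMS, the target, stood at 20.4, 7.24 and 7.39 CPM (counts per 1e6 counts, with TMM scaling) in shCtrl replicates 1, 2 and 3 and at 2.53, 3.34 and 3.08 CPM in shRBPMS. It was thus lower in every shRBPMS library, and was itself high in shCtrl replicate 1. All 11 myeloblast markers had a line, with a summed level of 16937 to 24525 CPM in shCtrl and 20610 to 22082 CPM in shRBPMS, most of it MPO and PRTN3. Among them CD33 rose by 1.71 on the log2 scale (edgeR adjusted p = 0.02457 by group alone), a call that was lost without shCtrl replicate 2 or 3 or any 1 shRBPMS library. In a fit blocked on the replicate number CD38, RUNX1 and RUNX1T1 also fell, by 0.90 (adjusted p = 0.04728), 0.29 (0.0496) and 0.68 (0.005347).

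SULT1C2 was the most abundant of the 5 in control cells. Its level was 65.4, 24.2 and 26.3 CPM in shCtrl replicates 1, 2 and 3 and 2.04, 2.775 and 2.86 CPM in shRBPMS. The highest shRBPMS library reached 0.118 of the lowest shCtrl library, so the groups lay far apart even without shCtrl replicate 1. The mean was 38.6 ± 23.3 CPM (SD, n = 3) in shCtrl and 2.56 ± 0.452 CPM (SD, n = 3) in shRBPMS, and replicate 1 held 56.5% of the summed shCtrl level.

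OLFML2A stood at 35.1, 9.79 and 12.0 CPM in shCtrl and at 1.92, 2.775 and 2.47 CPM in shRBPMS. The groups did not overlap. The shCtrl mean of 18.95 ± 14.0 CPM (SD, n = 3) drew 61.7% of its sum from replicate 1, while shRBPMS averaged 2.39 ± 0.435 CPM (SD, n = 3).

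PPP1R16B stood at 27.3, 12.3 and 12.2 CPM in shCtrl and at 2.32, 2.81 and 2.68 CPM in shRBPMS. The 2 control libraries of set 2 were nearly equal, and replicate 1 was 2.235-fold their mean. Means were 17.3 ± 8.72 and 2.61 ± 0.252 CPM (SD, n = 3 each).

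CCNJL stood at 28.8, 12.48 and 13.8 CPM in shCtrl and at 3.30, 3.51 and 2.65 CPM in shRBPMS. It had the smallest excess of shCtrl replicate 1 among the 5 genes, which still gave 52.3% of the summed control level. Means were 18.3 ± 9.07 and 3.15 ± 0.452 CPM (SD, n = 3 each).

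BCL6 was the least abundant and the most dependent on 1 library. It stood at 16.45, 2.37 and 3.17 CPM in shCtrl and at 0.815, 0.808 and 1.29 CPM in shRBPMS, from 369, 66 and 111 counts and from 20, 23 and 36 counts. The highest shRBPMS library reached 0.544 of the lowest shCtrl library, the narrowest gap of the 5 genes. Replicate 1 held 74.8% of the summed control level, and the shCtrl mean of 7.33 ± 7.91 CPM (SD, n = 3) has an SD as large as itself. The shRBPMS mean was 0.970 ± 0.275 CPM (SD, n = 3).

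**Figure D1:**
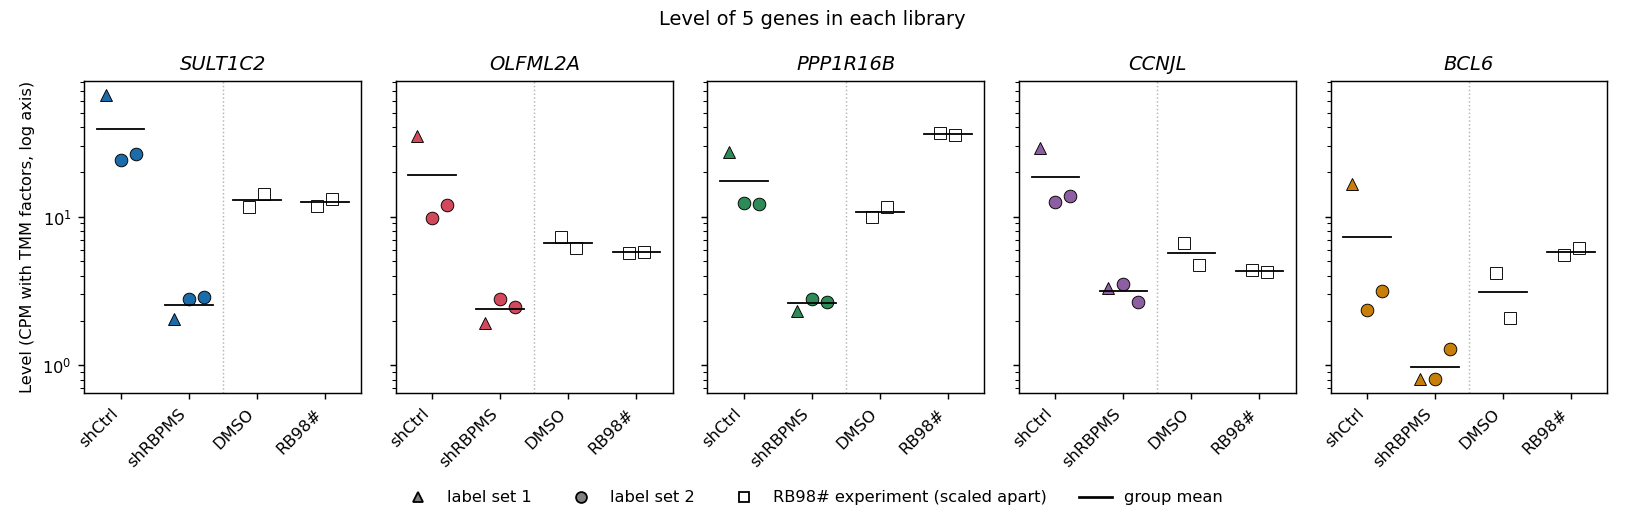
Level of each gene in the 10 libraries, as CPM on a log axis, 1 point a library (triangles for set 1, circles for set 2, squares for DMSO and RB98#) with a bar at each group's mean. The shCtrl point of set 1 is the highest knockdown-experiment point for all 5 genes, and the 3 shRBPMS points of each gene lie below its shCtrl points. The 2 experiments were scaled apart.

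The 3 shRBPMS libraries were all lower than the 3 shCtrl libraries for 5 of 5 genes. That was so for 13.6% of the 16215 genes tested, and nothing is read from the members' count, since this contrast chose them. Per kilobase of exon (the union of all GENCODE 29 exons), the control libraries of set 2 ordered the genes as SULT1C2 (2.88 and 3.13 CPM per kb), PPP1R16B (1.92 and 1.90), OLFML2A (1.45 and 1.78), CCNJL (1.355 and 1.49) and BCL6 (0.3985 and 0.5335). OLFML2A and CCNJL overlapped in that order, and the other neighbours did not. In shCtrl replicate 1 the values were 7.79, 4.27, 5.20, 3.13 and 2.77 CPM per kb in the same order of genes, so OLFML2A stood above PPP1R16B there. In shRBPMS all 15 values lay between 0.136 and 0.439 CPM per kb.

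The fold of the fall was computed within each set, from log2 CPM with a prior count of 2, and set 2 was taken as the mean of its 2 libraries per group. For SULT1C2 the log2 ratio of shRBPMS to shCtrl was -4.96 in set 1 (95% interval -5.44 to -4.60, counting error only), which is 31.0-fold lower, and -3.13 in set 2, which is 8.74-fold lower. The 2 same-numbered pairs within set 2 gave -3.09 and -3.17. For OLFML2A it was -4.14 (-4.65 to -3.77, 17.7-fold lower) in set 1 and -2.02 (4.055-fold lower) in set 2, with pairs at -1.79 and -2.25. SULT1C2 and OLFML2A were lower in shRBPMS in either set, by more in set 1.

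PPP1R16B gave -3.515 (-3.97 to -3.16, 11.4-fold lower) in set 1 and -2.13 (4.36-fold lower) in set 2, with pairs at -2.10 and -2.15. CCNJL gave -3.10 (-3.48 to -2.79, 8.55-fold lower) in set 1 and -2.08 (4.22-fold lower) in set 2, with pairs at -1.81 and -2.35. BCL6 gave -4.22 (-5.06 to -3.69, 18.6-fold lower) in set 1 and -1.36 (2.57-fold lower) in set 2, with pairs at -1.47 and -1.25. BCL6 thus ranked second of the 5 by its fall in set 1 and last in set 2, while SULT1C2 ranked first in both. In set 1 the counting interval of BCL6 overlapped those of SULT1C2, OLFML2A and PPP1R16B, so its rank there was not resolved. RBPMS itself gave -2.98 (7.88-fold lower) in set 1 and -1.17 (2.255-fold lower) in set 2.

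**Figure D2:**
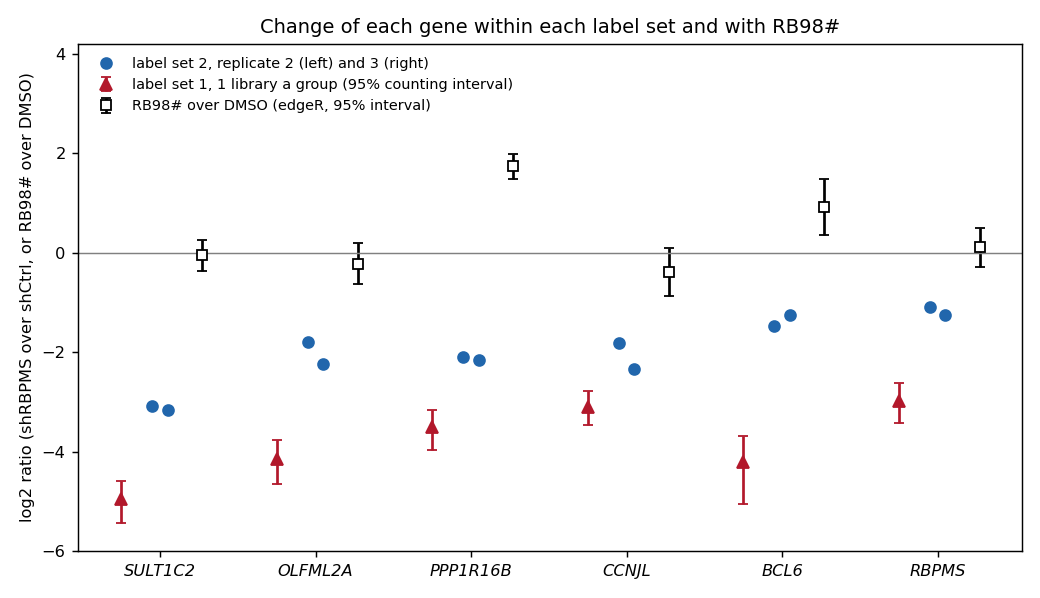
Log2 ratio of shRBPMS to shCtrl for each gene and for RBPMS, in set 1 (triangles, with the 95% counting interval) and in the 2 same-numbered pairs of set 2 (circles), beside the log2 change with RB98# (squares, with edgeR's 95% interval). The set 1 value is the lowest for each gene, with the widest gap at BCL6 (-4.22 against a set 2 mean of -1.36) and the narrowest at CCNJL (-3.10 against -2.08). RB98# values of PPP1R16B (1.74) and BCL6 (0.91) lie above 0.

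Set 1 minus set 2, the difference of log2 ratios was -1.83 for SULT1C2, -2.12 for OLFML2A, -1.39 for PPP1R16B, -1.02 for CCNJL and -2.86 for BCL6. Over all 16215 genes its median was 0.03, with a 5th to 95th percentile range of -0.75 to 0.998. A difference as low as that of BCL6 was found in 6 genes and one as low as that of CCNJL in 424 genes, the members included. Among the 357 genes (2.202%) that were at least 2-fold lower in both sets, 292 (81.8%) were lower by more in set 1, and 78 of them by at least 1 on the log2 scale. Of 185 genes at least 4-fold lower in set 1, 51 (27.6%) were also at least 4-fold lower in set 2. SULT1C2, OLFML2A, PPP1R16B and CCNJL are among those 51, and BCL6 is not. The interaction of group and set, tested by edgeR over all genes, was past 0.05 in 2799 genes (17.3%), 1338 of them lower in set 1 (8.25%) and 1461 higher (9.01%). It is not given for the members, whose choice used this difference.

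**Figure D3:**
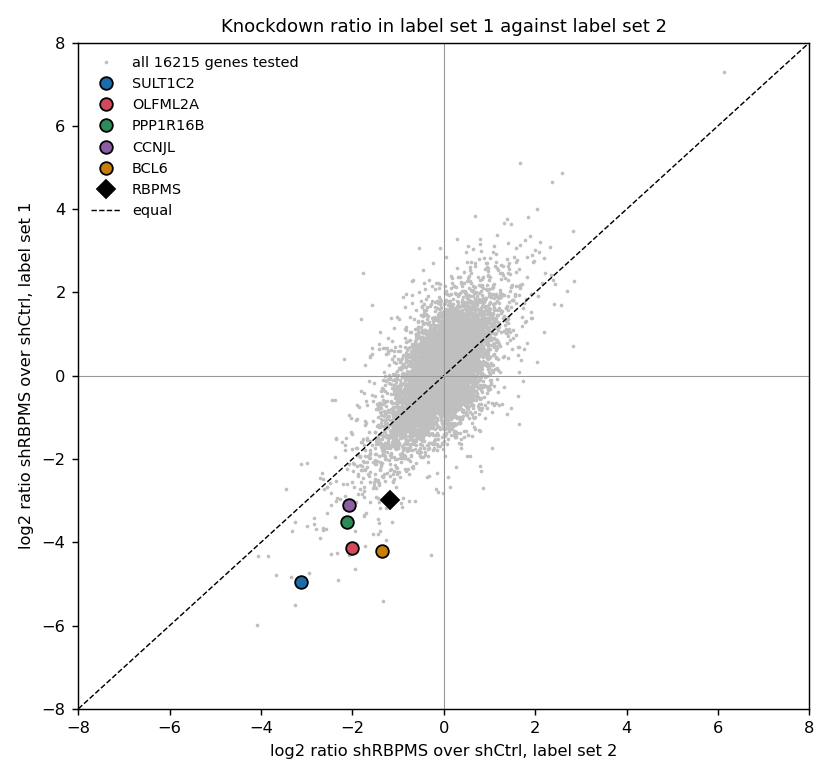
Log2 ratio of shRBPMS to shCtrl in set 1 (vertical axis) against set 2 (horizontal axis) for all tested genes, 1 grey point a gene, with a dashed line of equal ratios and the 5 members and RBPMS marked. The members lie below the line, where the fall in set 1 is the larger, BCL6 farthest (-4.22 and -1.36).

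In log2 CPM with TMM factors, the larger share of the difference between sets lay in the control libraries for each gene. In shCtrl, set 1 over set 2 gave a log2 ratio of 1.375 for SULT1C2, 1.69 for OLFML2A, 1.16 for PPP1R16B, 1.13 for CCNJL and 2.555 for BCL6, which is 2.59, 3.22, 2.23, 2.19 and 5.88-fold higher. These values restate what chose the genes, a high level in shCtrl replicate 1, and nothing is read from their place among all genes. An excess as large as that of BCL6 was found in 21 genes (0.130%), as large as that of OLFML2A in 131 (0.808%) and as large as that of CCNJL in 536 (3.31%). In shRBPMS the same ratio was -0.45, -0.44, -0.23, 0.11 and -0.30. Over all genes the shRBPMS ratio had a median of 0.03, with a 5th to 95th percentile range of -1.225 to 1.04. A lower shRBPMS level in set 1 thus added to the difference for SULT1C2 (0.45 of 1.83 on the log2 scale), OLFML2A and PPP1R16B. CCNJL went the other way. For BCL6, shRBPMS replicate 1 (0.815 CPM) was close to replicate 2 (0.808 CPM), and only replicate 3 (1.29 CPM) was clearly higher. RBPMS gave 1.47 in shCtrl and -0.33 in shRBPMS.

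**Figure D4:**
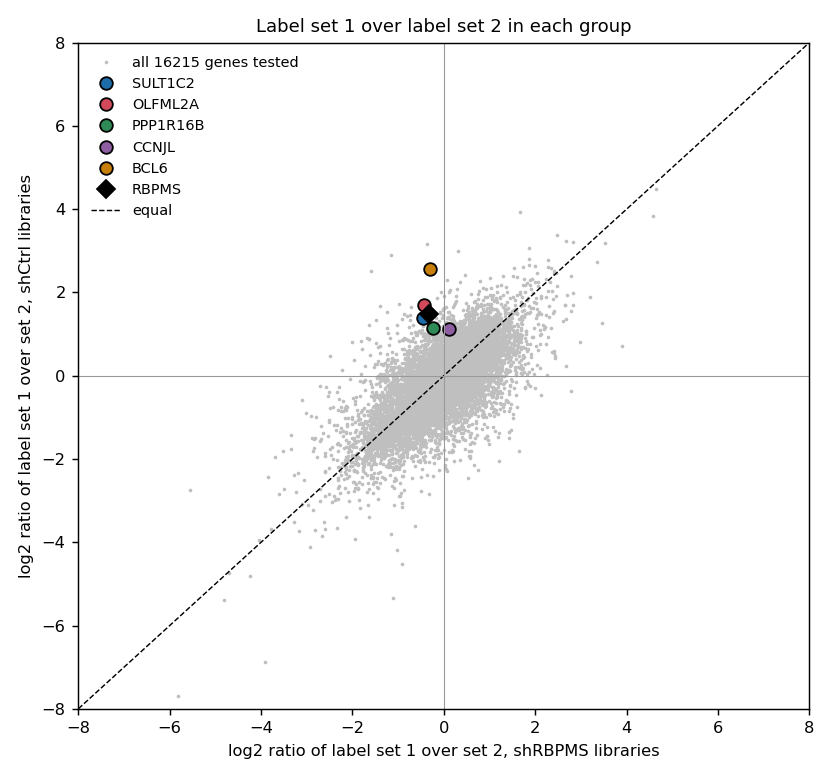
Log2 ratio of set 1 to set 2 in shCtrl (vertical axis) and in shRBPMS (horizontal axis) for all tested genes, 1 grey point a gene, with a dashed line of equal ratios and the 5 members and RBPMS marked. The members spread from 1.13 to 2.555 along the shCtrl axis and stay between -0.45 and 0.11 along the shRBPMS axis.

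The table also holds a signal value per library, adjusted by the authors by an unstated procedure, which gave narrower gaps in the same order. On that scale BCL6 stood at 201.1, 86.8 and 123.0 in shCtrl and at 11.3, 32.8 and 53.2 in shRBPMS, so shCtrl replicate 1 remained the highest. For every member shRBPMS replicate 1 was there the lowest shRBPMS library, CCNJL included (70.1 against 128.2 and 76.3). By mean log2 value it lay farther below set 2 than shCtrl replicate 1 lay above it. Whether the larger share lay in the control libraries thus depended on the scale. Log2 ratios in sets 1 and 2 were -4.49 and -3.01 for SULT1C2, -3.68 and -1.87 for OLFML2A and -3.16 and -2.04 for PPP1R16B. They were -2.88 and -2.01 for CCNJL and -3.93 and -1.265 for BCL6. The authors' deposited table gives log2 changes, over all 6 libraries, of -3.51, -2.46, -2.42, -2.29 and -2.08 in the order SULT1C2, OLFML2A, PPP1R16B, CCNJL, BCL6.

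An edgeR fit of group alone over all 6 libraries gave log2 changes of -3.91 (SE 0.458) for SULT1C2, -2.98 (SE 0.534) for OLFML2A, -2.72 (SE 0.370) for PPP1R16B, -2.54 (SE 0.367) for CCNJL and -2.90 (SE 0.806) for BCL6. The SE of BCL6 was the largest of the 5. Without shCtrl replicate 1 the value of BCL6 was -1.52, that of OLFML2A -2.195 and that of SULT1C2 -3.305. PPP1R16B and CCNJL then stood at -2.24 and -2.07, so all 5 stayed lower in shRBPMS.

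Markers of other cell types were set beside these levels. Of 8 endothelial markers only PECAM1 and ESAM had a line, and CDH5, VWF, KDR, TEK, ROBO4 and CLDN5 had none. Their summed level was 172.3 to 454.8 CPM in shCtrl and 86.7 to 122.4 CPM in shRBPMS. PECAM1, a platelet and endothelial adhesion molecule that leukocytes also carry, stood at 377, 98.3 and 105 CPM in shCtrl and at 102, 49.6 and 47.1 CPM in shRBPMS, scaled by library totals. PECAM1 was therefore high in shRBPMS replicate 1, unlike the 5 genes, as well as in shCtrl replicate 1, like them. ESAM, at 77.5, 73.95 and 76.0 CPM in shCtrl and 20.6, 38.1 and 39.6 CPM in shRBPMS, was not.

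Of 6 B cell markers 4 had a line (MS4A1 and CR2 had none), summing to 7.075 to 11.2 CPM in shCtrl and 7.005 to 7.69 CPM in shRBPMS. Only CD79B among them was called in the blocked fit, lower by 0.74 (edgeR adjusted p = 0.01372, and 0.2862 by group alone). Of 7 T cell markers 5 had a line (CD3G and CD2 had none), summing to 63.0 to 80.3 and 50.9 to 114.7 CPM, most of it CD4. CD3D and CD3E, chains of the T cell receptor complex, fell in the knockdown by group alone. Their falls were 1.91 (edgeR adjusted p = 0.0222) and 3.08 (0.03346) on the log2 scale. The blocked fit also called them lower (edgeR adjusted p = 0.0007415 and 0.001902). The other T cell markers tested were called in neither fit. By group alone CD4 changed by 0.22 (edgeR adjusted p = 0.8772), CD247 by -0.16 (0.9142) and CD8A by -0.15 (0.8397), so the list did not fall as a whole. CD3D stood at 8.37, 8.65 and 8.09 CPM in shCtrl and at 1.78, 2.71 and 2.32 CPM in shRBPMS, and CD3E at 1.75, 1.24 and 0.844 and at 0.198, 0.108 and 0.1475 CPM (scaled by library totals). Both calls held in set 2 alone (log2 change -1.74 and -2.98, adjusted p = 1.604e-09 and 4.497e-05), where 6830 genes were called. The calls of CD3D and CD3E by group alone were lost when any 1 library of set 2 was left out, that of CD3E also without shRBPMS replicate 1. EPCAM alone of 6 epithelial markers had a line, at 27.1 to 37.4 and 37.2 to 63.6 CPM, and 0 of 6 fibroblast markers did. EPCAM was higher by 0.52 in the blocked fit (edgeR adjusted p = 0.005303, and 0.4066 by group alone). The part of the markers and of the mitochondrial share in the members' values was not tested. In bulk RNA, fewer cells that express a gene and less RNA per cell cannot be told apart.

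Genes with the most similar course over the 6 knockdown libraries were found by the root mean square (RMS) difference of centred log2 CPM, among 10602 genes whose log2 CPM averaged 2 or more. For SULT1C2 these were TRH (0.557), CD109 (0.579) and MT-TD (0.645). For OLFML2A they were CD109 (0.287), MMP28 (0.374) and SLC2A3 (0.470), and for PPP1R16B they were MMP28 (0.195), SLC2A3 (0.346) and SMAGP (0.3545). CCNJL was followed most closely by MMP28 (0.1835), DISC1 (0.308) and SHE (0.310), and BCL6 by CD109 (0.372), RBPMS (0.511) and VANGL2 (0.577). Between members the RMS difference ran from 0.1785 (PPP1R16B and CCNJL) to 0.836. Pearson's r of these neighbours lay between 0.958 and 0.998 over the 6 libraries, as a description, since all share libraries and the groups form clusters. Chosen by r in place of the RMS difference, 0 of the 3 genes were shared for each member.

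RB98# gave a readout of the same genes in libraries that were not used to choose them, from cells for which no virus is named. Over all 12324 genes tested, edgeR called 4659 (37.8%), with 2530 (20.5%) higher and 2129 (17.3%) lower at an adjusted p of 0.05. Scaled by library totals only, the split was 1690 higher and 3276 lower and the median change of all genes -0.10, against a median of 6.529e-05 with TMM. Without DMSO replicate 1 or 2 the calls numbered 2843 and 2731. Among the 5 genes 2 were higher, 0 lower and 3 not past 0.05, a share near that of all genes.

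PPP1R16B rose with RB98#. Its level was 9.90 and 11.6 CPM in DMSO and 36.4 and 35.5 CPM with RB98#, so the groups were far apart and the replicates close. The mean went from 10.75 ± 1.21 to 36.0 ± 0.596 CPM (SD, n = 2 each), a log2 change of 1.74 (SE 0.119, edgeR adjusted p = 2.497e-11) or 3.34-fold. That was the 82nd highest log2 change of all 12324 genes. Per kilobase, its mean was the highest of the 5 genes in both groups, at 1.68 CPM per kb against 1.53 for SULT1C2 in DMSO, where single libraries of the 2 genes overlapped, and at 5.62 against 1.48 with RB98#.

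BCL6 was also higher with RB98#, with less certainty. Its level was 4.165 and 2.07 CPM in DMSO and 5.53 and 6.12 CPM with RB98#, from 61, 33, 81 and 82 counts. Both RB98# libraries lay above both DMSO libraries, as for 34.3% of all genes, and DMSO replicate 1 was closer to either treated library than to DMSO replicate 2. The log2 change was 0.91 (SE 0.273, edgeR adjusted p = 0.01029), or 1.88-fold. Without DMSO replicate 1 the log2 change was 1.49. The call was lost without DMSO replicate 2 (log2 change 0.48, adjusted p = 0.2735) and with DESeq2 (0.90, adjusted p = 0.05892), and the authors' deposited table gives an adjusted p of 0.124303.

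For SULT1C2, OLFML2A and CCNJL no change with RB98# passed the threshold. SULT1C2 stood at 11.5 and 14.2 CPM in DMSO and at 11.8 and 13.1 CPM with RB98#, a log2 change of -0.05 (95% interval -0.36 to 0.25, edgeR adjusted p = 0.8129). The treated values lay between the DMSO values. OLFML2A stood at 7.24 and 6.15 CPM in DMSO and at 5.67 and 5.82 CPM with RB98#, a log2 change of -0.22 (-0.63 to 0.19, edgeR adjusted p = 0.4176). CCNJL stood at 6.69 and 4.71 CPM in DMSO and at 4.37 and 4.26 CPM with RB98#, a log2 change of -0.40 (-0.88 to 0.09, edgeR adjusted p = 0.191). For the last 2 genes both RB98# libraries lay below both DMSO libraries, as did 34% of all genes. For each of the 3 genes the lower bound lies above its log2 ratio in either knockdown set. Those ratios are large because the genes were chosen by them, so nothing is read from this gap. A difference between the compound and the knockdown was not tested.

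RBPMS itself stood at 7.17 and 6.4 CPM in DMSO and at 6.62 and 8.06 CPM with RB98# (log2 change 0.11, -0.28 to 0.50, edgeR adjusted p = 0.678). Of the 10 genes nearest to the members in the knockdown, 9 could be tested with RB98#, and 3 of them rose. SLC2A3, a glucose transporter, changed by 0.95 (adjusted p = 2.241e-10), CD109, a surface glycoprotein, by 0.41 (adjusted p = 0.01074) and DISC1, a scaffold protein, by 0.235 (adjusted p = 0.01938). The calls of CD109 and DISC1 were lost with scaling by library totals only (adjusted p = 0.05221 and 0.1727), with DESeq2 (0.06484 and 0.0672) and without DMSO replicate 2 (0.2717 and 0.1976). That of CD109 was also lost without RB98# replicate 1 (0.05108) and that of DISC1 without DMSO replicate 1 (0.1545). None of the 9 fell past 0.05, and the other 6 did not pass it. SMAGP (log2 change -0.56, adjusted p = 0.08767) ran from -0.24 to -0.98 with 1 library left out, and was past 0.05 with library totals only (0.04796), without DMSO replicate 1 (0.04574) and without RB98# replicate 2 (0.01128).

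Genes of each member's family or pathway were counted next, from lists that leave the member out. The fit of group alone called 320 of 16215 genes in the knockdown (1.97%), 102 higher (0.629%) and 218 lower (1.34%), and a fit blocked on the replicate number called 4549 (28.1%), 2157 higher (13.3%) and 2392 lower (14.8%). Both counts are therefore given, group alone first. In this 6-library experiment the calls of group alone for PPP1R18 and CCNJ, named in what follows, were each lost without shCtrl replicate 2, shCtrl replicate 3 or any 1 of the shRBPMS libraries.

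Of 15 sulfotransferases and enzymes of PAPS supply, 5 were tested in the knockdown, with 0 called by group alone and, with the block, 1 higher and 1 lower. SULT1B1, a thyroid hormone sulfotransferase, changed by 2.03 with the block (adjusted p = 0.02108) and PAPSS2, which makes the donor PAPS, by -0.83 (adjusted p = 0.0105). By group alone their adjusted p were 0.1726 and 0.08039. SULT1B1 was low in every library, at 0.333, 0.4745 and 0.0582 CPM in shCtrl and 1.546, 0.976 and 0.922 CPM in shRBPMS (scaled by library totals). With RB98#, 2 of 7 were higher and 2 lower, against 20.5% and 17.3% of all genes. SULT1A4 and SULT1A3 had the largest changes of the list, at 6.47 and -1.06. They are near-identical copies whose reads can be split between them, so both values are uncertain. The call of SULT1A3 was also lost without DMSO replicate 2, without RB98# replicate 1 and with DESeq2. Of 12 olfactomedin domain proteins 2 were tested in the knockdown and 1 with RB98#, and 0 passed in either.

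Of 32 protein phosphatase 1 subunits and ERM substrates, 29 were tested in the knockdown, with 0 higher and 1 lower by group alone and 9 higher and 5 lower with the block. PPP1R18, or phostensin, which ties the phosphatase to actin, changed by -1.70 (SE 0.204, edgeR adjusted p = 0.0245). PPP1R16A, the paralog of PPP1R16B, changed by 0.54 with the block (adjusted p = 0.006569) and was not past 0.05 by group alone (adjusted p = 0.4356). With RB98#, 8 of 29 were higher and 6 lower, against 20.5% and 17.3% of all genes. PPP1R15A, or GADD34, which directs the phosphatase to eIF2 alpha, rose by 1.66 (adjusted p = 1.334e-12), and PPP1R3B, a glycogen-targeting subunit, fell by 1.03 on the log2 scale (adjusted p = 5.767e-06).

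All 25 other cyclins were tested in the knockdown, with 0 higher and 1 lower by group alone and 2 higher and 11 lower with the block. Their median log2 change was -0.19 by group alone, against 0.02 for all genes. CCNJ, the nearest relative of CCNJL, changed by -0.87 (SE 0.1375, edgeR adjusted p = 0.03527), and CCNF by -0.74 with the block (adjusted p = 0.001669, and 0.08753 by group alone). With RB98#, 11 of 24 were higher and 6 lower, against 20.5% and 17.3% of all genes. CCNG1, a p53 target, there changed by 0.94 (adjusted p = 2.161e-10) and CCNYL1 by 0.92 (adjusted p = 0.0001019).

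Of the 24 listed partners and corepressors of BCL6, 22 were tested in the knockdown, with 1 higher and 0 lower by group alone and 5 higher and 6 lower with the block. The class II deacetylase HDAC5 changed by -1.004 with the block (adjusted p = 0.002126, and 0.0924 by group alone). With RB98#, 10 of 23 were higher and 3 lower, against 20.5% and 17.3% of all genes. HDAC5 there changed by 1.045 (adjusted p = 1.086e-07) and HDAC4 by 0.62 (adjusted p = 2.304e-05).

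Of 28 genes that BCL6 is known to repress, 23 were tested in the knockdown, with 1 higher and 1 lower by group alone and 4 higher and 9 lower with the block. Their median log2 change was 0.04 by group alone. IRF4, a plasma cell factor, and CDKN1A, the p21 inhibitor of the cell cycle, changed by -2.63 (adjusted p = 0.01564) and -1.22 (adjusted p = 0.000801) with the block. By group alone their adjusted p were 0.1884 and 0.18. The change of IRF4, -3.05 by group alone, was -1.30 without shCtrl replicate 1 (adjusted p = 0.2102) and -1.4 in set 2 alone (0.01908). IRF4, like the 5 genes, was high in shCtrl replicate 1, at 6.20, 0.6205 and 0.989 CPM in shCtrl and 0.357, 0.181 and 0.442 CPM in shRBPMS (scaled by library totals).

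With RB98#, where BCL6 was higher, 9 of 22 of these genes were higher and 4 lower, against 20.5% and 17.3% of all genes. The largest rises were those of CD69, an early activation antigen, by 2.405 (adjusted p = 1.396e-17) and CXCR4, the chemokine receptor, by 2.26 (adjusted p = 1.625e-10).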

How the data were processed

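RNA-seq of 10 Kasumi-1 libraries was used (3 shCtrl, 3 shRBPMS, 2 DMSO, 2 RB98#); 4 of the 14 samples were not analysed here. Tools listed in the submitters' processing notes are HISAT2 2.2.1, featureCounts 2.0.1, fastp 0.22.0, DESeq2 1.32.0 and StringTie, with hg38/GRCh38. Per the file headers, the columns used hold counts per gene, deposited without normalisation. The knockdown table also has signal columns that the authors adjusted in an unstated way, and both have the authors' deposited log2 changes and p-values. Another 4 per-library columns of the RB98# table were not used, and 112 repeated lines were dropped.

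Tests were two-sided quasi-likelihood F tests (edgeR 4.0.16, R 4.3.3) with TMM factors, filterByExpr (count 10, total 15), group alone as design and Benjamini-Hochberg adjustment over all genes at 0.05. CPM carry TMM factors unless stated, and log2 CPM a prior count of 2. Same-numbered knockdown libraries deviated together from their group means (r 0.852, 0.772 and 0.800 over 10606 genes). A fit blocked on that number is therefore given beside the knockdown counts. A difference between the label sets that both groups share would also raise these r values. Differently numbered libraries of the same set were not compared, so the r values do not show a pairing by number. Motifs were searched in RefSeq windows.

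The members and the 12 gene lists were chosen with earlier results of these data known. Named are the 5 members, RBPMS, the 3 genes nearest each member, and per list tied to a member and experiment up to 2 genes past 0.05 with the largest change, in the knockdown also from the block fit. PECAM1, ESAM and other cell type markers were named as lists, CD33, CD3D, CD3E, CD79B and 3 myeloblast markers after their values were seen. A gene that the rule names is not reported here. Alternatives were DESeq2 1.42.0, other scalings, no filter, the block, the label set as covariate, set 2 alone and leaving out each library. The script was tested on simulated data.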

Additional observations from a re-analysis of the deposited data

Results flagged for a closer look

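The knockdown effect differed between the library sets in 2799 of 16215 genes (17.3%) by the interaction of group and set in edgeR, the log2 ratio of shRBPMS to shCtrl being lower in set 1 for 1338 genes and higher for 1461. The spread in that test comes from set 2 only, since set 1 holds 1 library per group. The 5 genes were chosen with this difference in view, so their values are described without it.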

How the results depend on the processing

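The number of genes called in the knockdown, 320 by group alone, was 1339 with DESeq2, 4549 with the replicate block, 5810 with the label set as a covariate, 6830 in set 2 alone and 2681 with replicates 2 and 3 summed and the set as a covariate. Leaving out 1 library gave 0 to 322, namely 2 genes when shCtrl replicate 2 was left out, 37 for shRBPMS replicate 1, and 0 for shCtrl replicate 3, shRBPMS replicate 2 and shRBPMS replicate 3. Before adjustment, 2010, 1866 and 2002 genes had an edgeR p under 0.05 in those last 3 fits, and 2733 with all libraries. With RB98# it gave 2731 to 5028 of 4659, with 2843 and 2731 without DMSO replicates 1 and 2. The count of genes with a set difference was 1316 with DESeq2 and 2635 to 3013 with 1 library left out, of 2799.

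Leaving out 1 library, the knockdown log2 change ran from -4.17 to -3.305 for SULT1C2, -3.30 to -2.195 for OLFML2A, -2.93 to -2.24 for PPP1R16B, -2.76 to -2.07 for CCNJL and -3.33 to -1.52 for BCL6, the smaller fall in each being without shCtrl replicate 1. In set 2 alone SULT1C2 stood at -3.16, OLFML2A at -2.06, PPP1R16B at -2.15 and BCL6 at -1.41. With RB98#, SULT1C2 ran from -0.19 to 0.11 and turned sign without DMSO replicate 2 (0.11) and RB98# replicate 1 (0.0072). OLFML2A ran from -0.33 to -0.10, PPP1R16B from 1.63 to 1.86, CCNJL from -0.63 to -0.13 and BCL6 from 0.48 to 1.49, with 0.90 under DESeq2, where its call was lost. The cause of these shifts was not tested.

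Same-numbered RB98# libraries did not deviate together (r -0.0585 over 10443 genes, 2 pairs). The replicate block gave 4430 calls there and BCL6 at 0.93 (adjusted p = 0.002234), and it changed no member's call. Over the other values (named list genes, CD33, CD3D, CD3E, nearest genes, ratios within sets) the alternatives left 316 on their side of the threshold or within the replicate spread, while 36 gained a call, 40 lost one and 14 moved. The runs on CD33, CD3D and CD3E were chosen after seeing the data. VANGL2 with RB98# (0.05, not called, -0.02 to 0.1251 with 1 library left out) turned sign with library totals only (-0.047) and without DMSO replicate 1 (-0.010) or RB98# replicate 1 (-0.021). With 20 to 36 BCL6 counts in shRBPMS, counting error widens its ratios most.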
